A study of Rattus norvegicus with 4 samples.

Results

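A set of 7 genes of the entry side of the ubiquitin–proteasome system was followed in heart muscle cells given a proteasome inhibitor. They were chosen by gene symbol: the ubiquitin precursor genes Ubb and Rps27a, the ubiquitin-activating (E1) enzyme genes Uba1 and Uba6, and the genes Rad23b, Ubqln1 and Ubqln2, whose products shuttle ubiquitinated proteins to the proteasome. All 7 were found among the 18699 genes of the expression table, and all 7 were among the 14519 genes with enough counts to be tested. The cells were ventricular myocytes of Sprague Dawley rats aged 1 to 3 days, wild type, kept as primary cultures with 0.1 mM 5-bromo-2-deoxyuridine, which holds back the growth of other cell types. In 2 libraries the cells had received vehicle, and in the other 2 they had received 1 µM carfilzomib, a drug against multiple myeloma that blocks the proteasome irreversibly, for 24 h. Nothing in the labels ties the 2 libraries of a group to different cultures, and the p-values therefore rest on a spread that may be purely technical.

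Ubiquitin is a small protein that cells attach to other proteins, often as a chain that marks them for destruction. It is made only as a precursor, either as a string of ubiquitin copies or as a fusion to a ribosomal protein, and is cut free by deubiquitinating enzymes. An E1 enzyme activates it with ATP and passes it to E2 enzymes, which act with ubiquitin ligases. Shuttle receptors carry a ubiquitin-like domain that binds the proteasome and a ubiquitin-associated domain that binds ubiquitin chains, so that they can bring marked proteins to the proteasome.

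All 3 shuttle genes rose with carfilzomib, by 1.44-fold to 1.74-fold. The E1 genes moved in opposite directions, with Uba6 1.32-fold higher and Uba1 lower by a log2 fold change of -0.11. Of the precursors, Rps27a was 1.10-fold higher and Ubb was at 1.06-fold without passing the test. Of the 7 genes 5 were called higher, 1 lower and 1 was not called, where 60.7% of all tested genes were called, 30.6% higher and 30.1% lower. In normalised level the groups did not overlap for any of the 7, with carfilzomib higher for all but Uba1. Non-overlap held for 79.9% of all tested genes (39.8% with carfilzomib higher and 40% with carfilzomib lower). The 7 genes were not tested as a set, so neither count shows that they stand apart. Their median log2 fold change was 0.40, beside 0.00 over all tested genes, and the 25th and 75th percentiles of all tested genes were -0.38 and 0.30. A gene is called when its p from the quasi-likelihood test of edgeR, adjusted over all tested genes by Benjamini-Hochberg, is under 0.05. Every fold change is carfilzomib over vehicle.

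**Figure D1:**
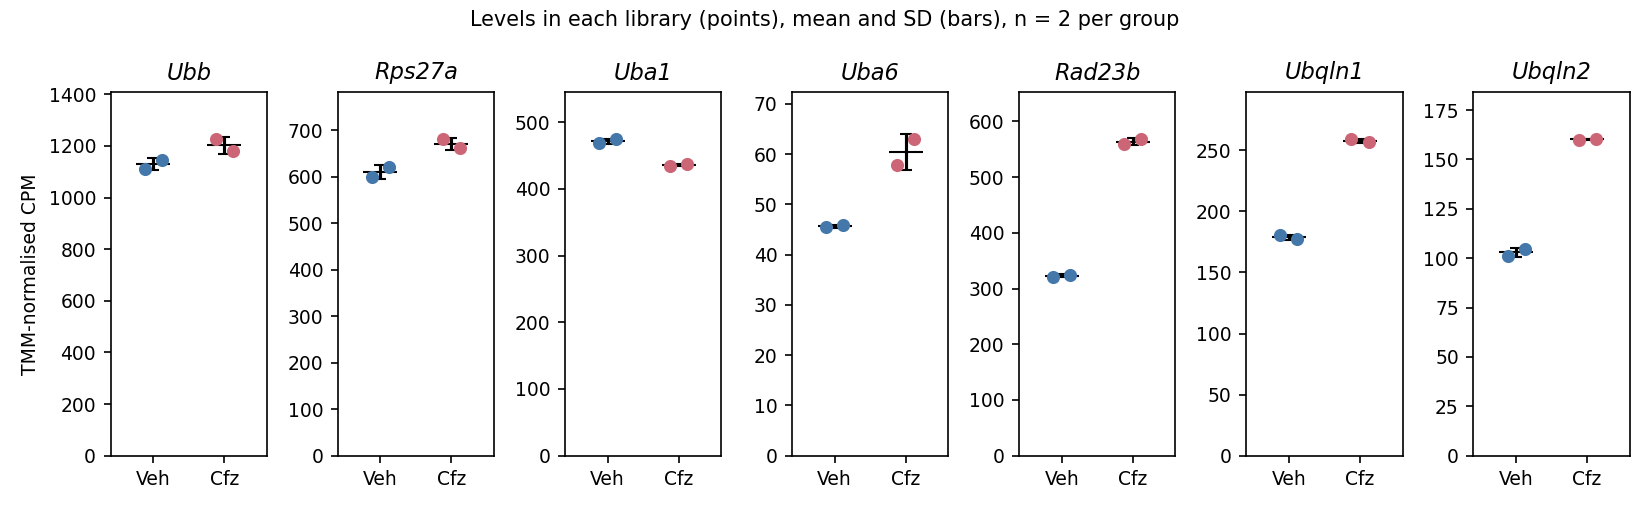
Normalised level of each of the 7 genes in TMM-normalised CPM (counts scaled to library size, vertical axes from 0, a separate scale for each gene) with vehicle (Veh) and carfilzomib (Cfz); points are the 2 libraries of a group, bars their mean and SD. The shuttle genes on the right show the widest gaps, with Rad23b near 323 CPM with vehicle and near 563 with carfilzomib, while Uba1 is the one gene that is lower with carfilzomib.

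The libraries held between 18655450 and 18884333 counts, and the 7 genes between 843.59 and 23373.22 estimated counts each in any library. The labelled cell type was checked against markers. All 11 cardiomyocyte markers were detected, with a summed level of 12345 and 12530 FPKM (reads scaled to transcript length and library size, which lets genes be compared) in the vehicle libraries and 3928 and 3731 FPKM in the carfilzomib libraries, and all 11 fell. Markers of fibroblasts were also present, with sums of 5295 and 5372 FPKM with vehicle and 3033 and 2905 FPKM with carfilzomib, and all 7 fell. The 4 smooth muscle markers fell too, from sums of 3017 and 3127 to 1146 and 1113 FPKM. The 5 endothelial markers summed to 10.2 to 12.5 FPKM and the 5 macrophage markers to 11.5 to 23.3 FPKM over the 4 libraries, and 1 of 5 and 4 of 4 tested fell. No marker was at 0 in all libraries. In such bulk samples fewer cells of a type and less RNA per cell cannot be told apart, and the part of these shifts in the results for the 7 genes was not tested.

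Among the precursors, Ubb (gene ID 192255) encodes polyubiquitin, a string of ubiquitin copies. Its level was 1112 and 1146 CPM in the vehicle libraries and 1225 and 1179 CPM in the carfilzomib libraries. The treated libraries were the higher ones, although the vehicle libraries were about as far from each other as the nearest libraries of the groups were. The change on the log2 scale was 0.09 ± 0.04 (SE; 95% interval 0.0056 to 0.18). The edgeR p was 0.0382 before adjustment and 0.0614 after. Ubb therefore did not pass, but it did under several other settings: its adjusted p was 0.0245 with DESeq2 and 0.0451 with limma-voom. The authors' deposited table lists it with a log2 fold change of 0.10 and a q-value of 0.0316.

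Rps27a (gene ID 100912032) encodes 1 ubiquitin fused to S27a, a protein of the small ribosomal subunit. The vehicle libraries held it at 599 and 621 CPM and the carfilzomib libraries at 679.9 and 661 CPM, and the groups did not overlap. It rose by 0.14 ± 0.04 (SE) on the log2 scale (edgeR adjusted p = 0.00782). Without carfilzomib replicate 1 the log2 fold change was 0.12 and the call was lost. Without carfilzomib replicate 2 it was 0.16 and the call was kept. Each of these comparisons has 1 treated library, assumed to vary like the vehicle libraries, and so has less power. As a gene of both ubiquitin and the ribosome it can be set beside the other ribosomal proteins. Of 77 tested genes of the cytosolic ribosome 20 rose, 18 fell and 39 were not called. Of the 77, 51 have uncertain counts, not whole in at least 1 library, among them Rplp2 and Rpl29 named here. Over all 77 the median log2 fold change was 0.0079, and 15 had a higher log2 fold change than Rps27a. The number that rose was 12 without carfilzomib replicate 1 and 11 without carfilzomib replicate 2, and the number that fell was 9 without the latter. Rplp2 and Rps21, acidic stalk and small-subunit proteins, rose by 0.60 and 0.52 on the log2 scale, and Rpl29 fell by 0.35 on the log2 scale.

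Both precursor genes have estimated counts that are not whole (off by more than 1e-06) in at least 1 library, called split reads here. For Rps27a this held only in vehicle replicate 2 (11467.21). The same was found for 3 of the 7 genes and for 5219 of the 14519 tested genes, so it does not set the 7 apart. The sources used here do not give how reads of near-identical genes were counted, so the values of such genes are uncertain. With the counts of Ubb and Rps27a summed, a step added after the data had been seen, the level was 1711 and 1766 CPM in the vehicle libraries and 1905 and 1840.3 CPM in the treated libraries. The sum was higher by 0.11 ± 0.04 (SE) on the log2 scale (edgeR adjusted p = 0.0302).

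The E1 enzymes moved apart. Uba1 (gene ID 314432) encodes the main E1, which charges most of the E2 enzymes. Its level was 469 and 474 CPM in the vehicle libraries and 435 and 437 CPM in the treated ones, so that each pair of replicates lay close together and the groups stood apart. It fell by 0.11 ± 0.04 (SE) on the log2 scale, with an edgeR adjusted p of 0.0177. With either treated library left out, which again leaves 1 whose spread is taken from the vehicle libraries, the log2 fold change was still -0.11, but the edgeR adjusted p was 0.136 without carfilzomib replicate 1 and 0.124 without carfilzomib replicate 2. The call was also lost when counts were scaled by library size alone, at -0.08 with an edgeR adjusted p of 0.0796.

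Uba6 (gene ID 305268) encodes a second E1, which activates ubiquitin and the ubiquitin-like protein FAT10. It was at 45.5 and 45.9 CPM with vehicle and at 57.9 and 62.9 CPM with carfilzomib. The treated libraries differed more from each other than the vehicle libraries did, and both were above them. It rose by 0.40 ± 0.06 (SE) on the log2 scale (edgeR adjusted p = 6.81e-05). Uba6 also has split reads. Per length, Uba1 was 19.2 and 19.3 times as high as Uba6 in the vehicle libraries, and 14.0 and 12.9 times as high in the carfilzomib libraries. The log2 ratio of Uba1 to Uba6 was thus lower by 0.52 with carfilzomib, with an exact two-sided permutation p of 0.333, the smallest that 2 libraries against 2 can give. Uba6 made up 4.94% of the summed FPKM of both E1 genes in each vehicle library and 6.68% and 7.18% in the carfilzomib libraries. With the counts of both E1 genes summed, likewise added after the data had been seen, the difference was -0.06 ± 0.04 (SE) on the log2 scale (edgeR adjusted p = 0.188).

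The promoters of the E1 genes are shown because these genes changed in opposite directions. They are taken from RefSeq on the rat build GRCr8, 250 bases before to 50 bases after the start site, at chrX:4080640-4080939 on the minus strand for Uba1 and at chr14:22238582-22238881 on the plus strand for Uba6, each printed 5′ to 3′ along the gene. Capitals mark matches on either strand to 7 motifs. These were TGACNNNGC for the antioxidant response element core, GAANNTTC for the heat shock element core, TATAAA for the TATA box, CCAAT for the CCAAT box, GGGCGG for the GC box, CCGGAAG for the ETS core and TGACGTCA for the cAMP response element.
Uba1: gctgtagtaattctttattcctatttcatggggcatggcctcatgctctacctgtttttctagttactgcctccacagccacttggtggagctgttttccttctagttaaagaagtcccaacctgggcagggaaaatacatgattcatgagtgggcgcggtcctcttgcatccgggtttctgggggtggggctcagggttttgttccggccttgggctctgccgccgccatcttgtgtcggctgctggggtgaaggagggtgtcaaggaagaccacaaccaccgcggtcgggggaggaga
Uba6: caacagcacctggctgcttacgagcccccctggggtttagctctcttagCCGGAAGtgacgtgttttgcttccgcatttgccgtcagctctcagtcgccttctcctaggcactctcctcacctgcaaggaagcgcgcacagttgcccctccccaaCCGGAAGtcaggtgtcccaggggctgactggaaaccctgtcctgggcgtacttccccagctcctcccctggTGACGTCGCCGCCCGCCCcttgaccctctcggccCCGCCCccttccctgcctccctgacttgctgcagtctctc
The Uba1 window held no match to any of the 7. The Uba6 window held an ETS core at -201 and at -95 from the start site, an antioxidant response element core at -24, and GC boxes at -16, -12 and 10, of which the first shares a base with the antioxidant core and overlaps the next. Of all 33469 rat promoter windows of this length, 12.1% held the antioxidant core, 8.75% the ETS core and 33.1% a GC box. A match is a description of the letters and not evidence of binding.

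Beside the E1 enzymes of ubiquitin stand those of its relatives. Of 8 tested genes that activate SUMO, NEDD8, UFM1, ISG15, autophagy proteins or URM1, 4 rose, 1 fell and 3 were not called, and the median log2 fold change was 0.33. The counts of this and the other lists stand beside shares of 30.6% called higher and 30.1% called lower over all tested genes. Mocs3, the activating enzyme of URM1, rose by 0.87 and Nae1, a subunit of the NEDD8 E1, by 0.72 on the log2 scale, while Uba2, a subunit of the SUMO E1, fell by 0.21 on the log2 scale. Uba7, the E1 of ISG15, was low, at 3.48 ± 0.05 CPM (mean ± SD) with vehicle and 4.16 ± 0.18 CPM after treatment (edgeR adjusted p = 0.233). Of these 8 genes 7 had a higher log2 fold change than Uba1 and 3 a higher one than Uba6. Downstream, of 26 ubiquitin E2 genes 14 rose, 7 fell and 5 were not called, and the median was 0.18. Ube2o, a large enzyme with both E2 and ligase activity, rose by 1.28 and Ube2l3 by 0.59 on the log2 scale. Ube2c, the E2 of the anaphase-promoting complex, fell by 1.26 on the log2 scale. Ube2z, the E2 that works with Uba6, was not called at 0.07 ± 0.04 (SE) on the log2 scale (edgeR adjusted p = 0.145), but was called when scaled by library size alone (edgeR adjusted p = 0.0391). Birc6, a giant ligase that takes ubiquitin by way of Uba6, rose by 0.64 ± 0.06 (SE) on the log2 scale.

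The shuttle receptors rose together. Rad23b (gene ID 298012), which encodes a shuttle that also serves DNA repair as a partner of XPC, was at 321 and 325 CPM with vehicle and at 559 and 568 CPM with carfilzomib. Replicates lay close together and far from the other group. It rose by 0.80 ± 0.04 (SE) on the log2 scale (edgeR adjusted p = 1.81e-10), and 93.7% of all tested genes had a lower log2 fold change.

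Ubqln1 (gene ID 114590) encodes ubiquilin 1, which also shields hydrophobic stretches of proteins on the way to destruction. It was at 180.3 and 177 CPM with vehicle and at 259 and 257 CPM with carfilzomib. The treated libraries were the higher ones, with a rise of 0.53 ± 0.04 (SE) on the log2 scale (edgeR adjusted p = 3.71e-08). Ubqln2 (gene ID 317396), its close relative, was at 101 and 105 CPM with vehicle and at 160.1 and 160.2 CPM with carfilzomib. Here the rise was 0.64 ± 0.05 (SE) on the log2 scale (edgeR adjusted p = 1.46e-08), with no overlap between groups. None of the 3 shuttle genes has split reads. Their log2 fold changes stayed between 0.52 and 0.83 over 11 other settings, and each was called in all of them.

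**Figure D2:**
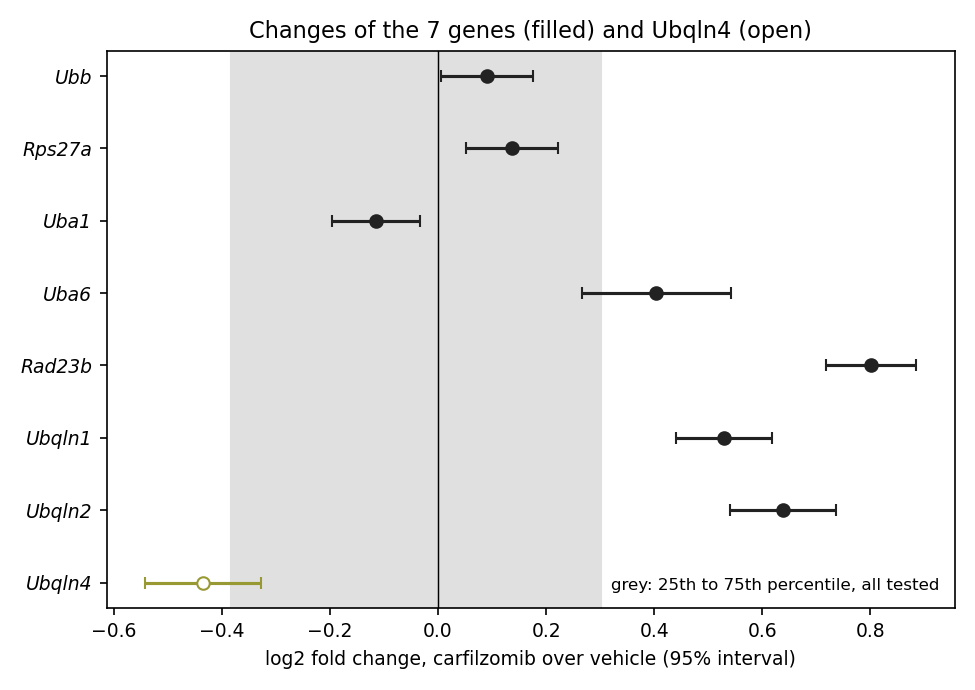
Log2 fold change of carfilzomib over vehicle with its 95% interval from edgeR (horizontal axis) for the 7 genes (filled) and the related gene Ubqln4 (open), beside the range from the 25th to the 75th percentile of all tested genes (grey band, -0.38 to 0.30). By their point estimates Rad23b, Ubqln2, Ubqln1 and Uba6 lie above the band and Ubqln4 lies below it. The precursors Ubb and Rps27a and Uba1 lie inside it. The intervals of Uba6 (from 0.27) and Ubqln4 (up to -0.33) reach into the band.

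Other shuttle genes did not all move the same way. Ubqln4, another ubiquilin gene, fell from 121 ± 3.71 to 89.5 ± 1.80 CPM (mean ± SD, n = 2), a log2 change of -0.43 ± 0.05 (SE; edgeR adjusted p = 2.61e-06). Ddi2, a shuttle with a protease domain that cuts the transcription factor NRF1, was at 75.6 ± 2.45 and 76.2 ± 0.35 CPM, and has split reads. It was not called (log2 change 0.012 ± 0.056, SE; edgeR adjusted p = 0.873), and the sign turned, to -0.021, without vehicle replicate 2.

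The promoters of Rad23b and Ubqln1 are shown as those of shuttle genes that rose together. They lie at chr5:74885268-74885567 and chr17:6444190-6444489 on GRCr8, both on the plus strand, with capitals as above.
Rad23b: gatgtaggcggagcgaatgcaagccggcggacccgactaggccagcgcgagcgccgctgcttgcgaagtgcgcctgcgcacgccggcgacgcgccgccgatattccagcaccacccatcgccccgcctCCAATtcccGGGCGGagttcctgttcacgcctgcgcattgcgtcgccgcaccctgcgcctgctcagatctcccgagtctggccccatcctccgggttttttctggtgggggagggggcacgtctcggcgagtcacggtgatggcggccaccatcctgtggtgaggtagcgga
Ubqln1: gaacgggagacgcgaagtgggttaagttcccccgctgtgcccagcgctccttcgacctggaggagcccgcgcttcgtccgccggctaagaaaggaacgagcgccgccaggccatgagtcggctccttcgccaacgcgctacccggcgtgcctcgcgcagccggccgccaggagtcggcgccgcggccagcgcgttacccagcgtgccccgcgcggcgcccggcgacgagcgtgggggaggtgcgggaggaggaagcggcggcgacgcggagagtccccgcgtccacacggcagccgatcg
The Rad23b window held a CCAAT box at -122 and a GC box at -113 from the start site, and the Ubqln1 window held none of the 7 motifs. CCAAT on either strand was present in 37.5% of all promoter windows. Both windows were rich in G and C, at 68.7% and 74.0% beside a median of 51.7% over all windows. Promoter windows were found for 6 of the 7 genes, 8 windows in all, since Ubb and Rps27a have 2 start sites each. The core of the heat shock element, present in 8.59% of all windows, was in none of the 8 windows, and the antioxidant core was in that of Uba6 and in that of the second Ubb start.

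Per length, the order of the 7 genes changed at 1 place. With vehicle it ran from Ubb through Rps27a, Uba1, Rad23b, Ubqln1 and Ubqln2 to Uba6, in both libraries. Uba1 was at 132.69 and 133.61 FPKM and Rad23b at 117.26 and 118.28 FPKM. With carfilzomib Rad23b, at 208.22 and 211.88 FPKM, stood above Uba1, at 125.47 and 126.29 FPKM, in both libraries. No neighbours in the order overlapped between libraries of a group. Ubb ranked 60th of 18699 genes by FPKM in both vehicle libraries and Uba6 8465th and 8409th, so the 7 genes span from among the most abundant transcripts to the middle of the table.

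**Figure D3:**
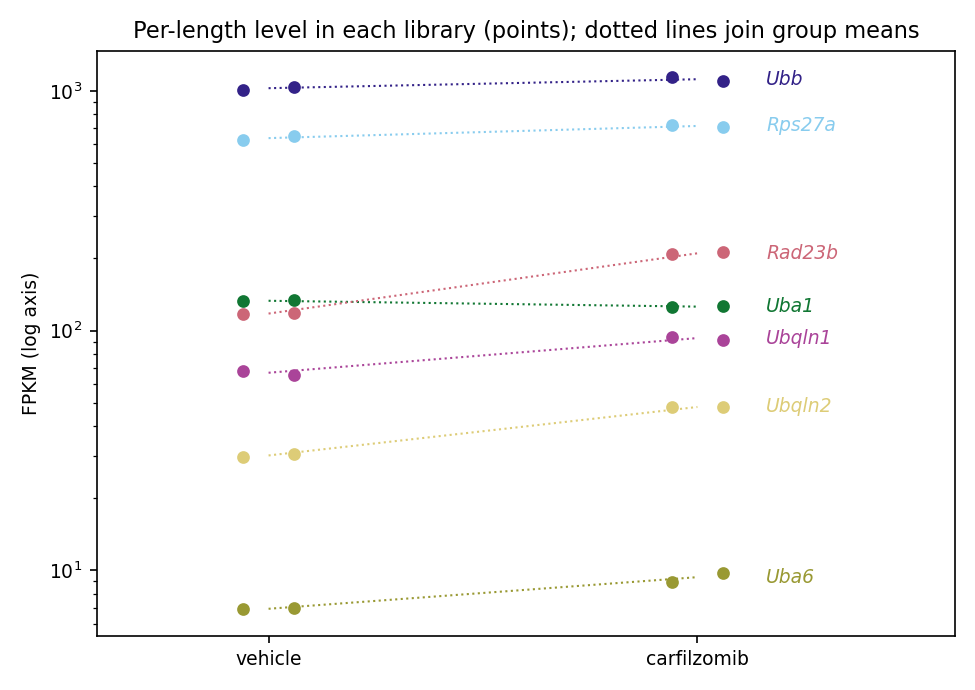
Level per length of the 7 genes in FPKM (vertical log axis) in the 2 vehicle and 2 carfilzomib libraries; points are libraries and dotted lines join the group means. Rad23b passes Uba1 with carfilzomib, while the precursors Ubb and Rps27a stay on top and Uba6 at the bottom.

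The make-up of the shuttle transcripts is given from the deposited FPKM. The 3 shuttle genes summed to 215 and 214 FPKM with vehicle and to 351 and 352 FPKM with carfilzomib. Rad23b gave 54.5% and 55.2% of that sum with vehicle and 59.4% and 60.2% with carfilzomib, while Ubqln1 gave 31.7% and 30.5% and then 26.9% and 26.1%. The share of Ubqln2 was 13.8% and 14.3% with vehicle and 13.7% in both carfilzomib libraries. The log2 ratio of Ubqln1 to Rad23b was lower by 0.35 with carfilzomib and that of Ubqln1 to Ubqln2 by 0.19, each with an exact two-sided permutation p of 0.333, the smallest possible here. With 1 fixed length per gene and the counts in place of the FPKM these differences were smaller, at -0.27 and -0.11. Part of the fall in the share of Ubqln1 thus comes from the lengths used in the deposited FPKM. The log2 ratio of Ubb to Rps27a was lower by 0.04, with the same exact p. These 3 ratios and that of Uba1 to Uba6 were the 4 computed. For each of them the groups did not overlap, which the exact p of 0.333 only restates. How often the ratios of other gene pairs do the same was not computed.

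The shuttles rose less than the proteasome to which they bind. All 32 tested subunits of the 26S proteasome rose. Their log2 fold changes ran from 0.76 to 2.30 around a median of 1.28, and 31 of the 32 had a higher value than Rad23b and all 32 a higher value than Ubqln1 and Ubqln2. Psmb3, a subunit of the catalytic core, rose by 2.30 on the log2 scale. The median subunit was at 114 and 119 FPKM with vehicle and 269 and 277 FPKM with carfilzomib. The summed FPKM of the 3 shuttles was 1.89 and 1.80 times that median with vehicle and 1.30 and 1.27 times with carfilzomib. For Ubb with Rps27a the same ratio was 14.4 and 14.2 with vehicle and 6.91 and 6.51 with carfilzomib, and for both E1 genes 1.23 and 1.18, then 0.50 and 0.49. All of these ratios were lower in both treated libraries than in both vehicle libraries. They restate the larger rise of the divisor and are not a separate result. In mean FPKM the median subunit rose 2.34-fold. The sums changed by 1.10-fold for the precursors, 0.97-fold for the E1 genes and 1.64-fold for the shuttles.

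Of 6 tested genes among other shuttles and the proteasome subunits to which shuttles dock, 4 rose, 1 fell and 1 was not called, and the median log2 fold change was 0.83. Psmd2 and Psmd4, docking sites in the cap of the proteasome, were among the 4 that rose, by 1.26 and 1.23 on the log2 scale. The 1 that fell was the shuttle gene Ubqln4, so the count and median are not those of shuttles alone. Of 10 deubiquitinases that cut precursors or recover ubiquitin from chains 9 rose and 1 was not called, and the median was 0.63. Uchl1, a ubiquitin hydrolase, rose by 2.77 and Psmd14, which removes chains at the proteasome, by 1.93 on the log2 scale. Usp5, which takes apart free ubiquitin chains and has split reads, rose by 1.23 ± 0.04 (SE). Uchl3, another hydrolase, rose by 0.17 ± 0.06 (SE) on the log2 scale at an edgeR adjusted p of 0.02, but this p was 0.203 with DESeq2 and between 0.0555 and 0.121 when any 1 library was left out. Of 12 tested heat shock response genes, a class to which Ubb is often counted, 8 rose, 2 fell and 2 were not called, and the median was 0.36. Hsp90aa1, a chaperone with split reads, and Bag3, a co-chaperone, rose by 1.01 and 0.67, and Dnajb1 fell by 0.54 on the log2 scale. Of these 12 genes 9 had a higher log2 fold change than Ubb.

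**Figure D4:**
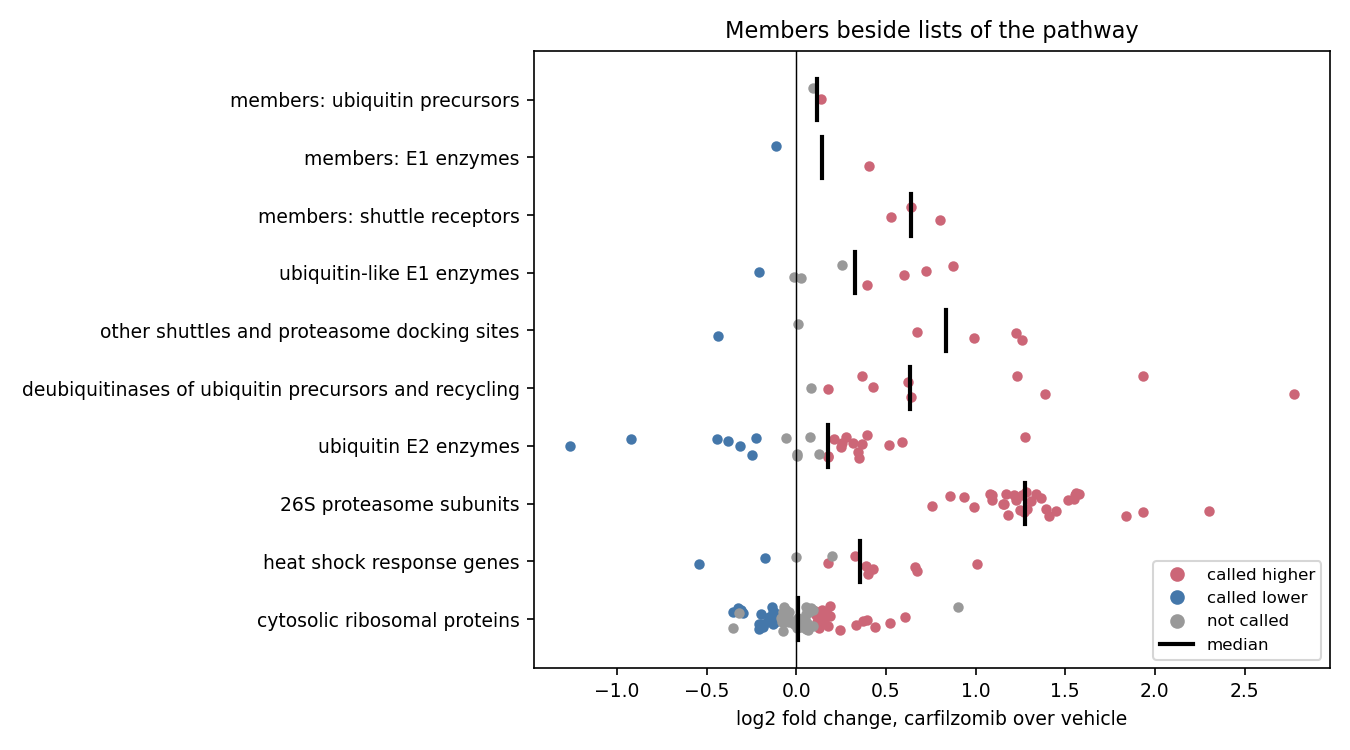
Log2 fold change of carfilzomib over vehicle (horizontal axis) for the 7 genes by role and for 7 lists of the pathway around them; each point is a gene, coloured by call, and black bars are medians. The medians run from 0.0079 for ribosomal proteins to 1.28 for proteasome subunits, with shuttle receptors at 0.64 and precursors at 0.11.

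Genes whose levels over the 4 libraries, each centred on its mean in log2 CPM, lay closest to those of the 7 were sought. The candidates were 9593 other genes of at least 10 CPM, without those lacking a symbol or with a provisional one such as LOC or RGD. The closest to Rad23b was Coq5, at a Euclidean distance of 0.01 with a log2 fold change of 0.80 beside 0.80. For Ubqln1 it was Hyal1 and for Ubqln2 it was Inf2, with 0.53 and 0.63. Ctbp2, at -0.12, was closest to Uba1 and Osgep, at 0.42, to Uba6. Abhd16a and Rnf25 were closest to Ubb and Rps27a, with 0.10 and 0.14. With 4 libraries in 2 groups such likeness is common: between 140 genes, for Rad23b, and 824 genes, for Uba1, lay within a distance of 0.1.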

How the data were processed

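RNA was sequenced in 2 vehicle and 2 carfilzomib libraries. Groups come from the sample titles, and table columns named as control were taken as the vehicle libraries of the same number, vehicle being the only control in the labels. Values deposited by the authors for each gene are an unnormalised estimated count and an FPKM, per the file headers. For 6063 genes the authors' deposited table adds a log2 fold change, p-value and q-value by DESeq2, per the file headers. The submitters' processing notes name, without roles, Bowtie2 and HISAT, featureCounts 1.6.0, cutadapt 2.0, FastQC 0.11.8, R 3.3.2, DESeq2 and the build Rnor_6.0. A further 10 columns of the table were not used here.

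Estimated counts were rounded. Replicates differed by more than sampling noise (chi-square per degree of freedom 3.42 for vehicle and 3.08 for carfilzomib). Genes passed filterByExpr (minimum count 10, total 15), with TMM factors, and were tested with the robust quasi-likelihood F test of edgeR 4.0.16 in R 4.3.3. SE is the absolute log2 fold change over the square root of F. The FPKM were used as deposited, without TMM. Scripts were tested on simulated data. Other settings tried were limma-voom (limma 3.58.1), DESeq2 1.42.0, RLE factors, library size alone, no filter, a stricter filter (1 CPM in 2 libraries, total 50), a replicate block and each library left out.

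Members and the 8 pathway lists (177 entries, 176 matched, 1 of them to a row already in its list) were chosen with earlier results of these data known. Named are the 7 members, 8 fixed relatives, the called genes of at least 10 CPM that changed most in each list (2 in its main direction, 1 against it), and the closest gene to each member. Some related genes are not reported here.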

Additional observations from a re-analysis of the deposited data

How the results depend on the processing

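Over 11 planned settings every log2 fold change of the 7 genes kept its direction, and Rad23b, Ubqln1, Ubqln2 and Uba6 were called in all of them. Ubb, not called above, passed with DESeq2 (log2 fold change 0.096, adjusted p 0.0245), limma-voom (0.091, 0.0451), library size alone (0.12, 0.0125) and no low-count filter (0.096, 0.0475). The sum of Ubb and Rps27a, added after seeing the data, passed as well (0.11, edgeR adjusted p 0.0302). Since Rps27a was called alone, that sum does not bear on Ubb by itself. With 1 library left out Ubb lay between 0.064 and 0.12 and passed without vehicle replicate 2, at an edgeR adjusted p of 0.0323. Rps27a lay between 0.11 and 0.16 with 1 library left out. Uba1 was not called with library size alone (-0.081) or with the replicate block (-0.11, edgeR adjusted p 0.0556), and lay between -0.12 and -0.11 with 1 library left out. The number of the 7 genes called lower was therefore 0 with library size alone and with the replicate block, and 0 to 1 with 1 library left out. The replicate block changed no other call among the 7. Same-numbered libraries deviated together (r = 0.32 over 10001 genes), but the labels do not say what a number stands for. The sign of Ddi2 changed without vehicle replicate 2 (-0.021, within a range of -0.021 to 0.046 with 1 library left out). The 4 log2 ratios kept their direction in every setting tried, but that of Ubqln1 to Ubqln2 was -0.11 from counts against -0.19 from FPKM. Counts over all genes stayed within 1.5 times of 4444 higher and 4368 lower. With 2 libraries a group, changes near 0.1 on the log2 scale sit at the edge of what can be called.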
